A study of Mus musculus with 13 samples.

Results

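Among the transcripts of the mouse testis and of its round spermatids, 87 genes for protease inhibitors were followed: 62 serpins, 9 cystatins, 12 Kazal-type inhibitors (Spink genes) and 4 tissue inhibitors of metalloproteases (Timp genes). They were taken by symbol, as every row named Serpin with a clade letter from a to i and a number, Cst with a number, Spink with a number or Timp with a number, out of 30479 genes in the deposited table. Of the 87, 45 reached 1 RPM (reads scaled to a common library size) in at least 2 of the 13 libraries, against 20085 of all 30479 genes. These 45, called measured here, were 32 serpins, 5 cystatins, 4 Spink genes and 4 Timp genes. Only 16 of the 87 had a mean of at least 10 RPM in any group of cell type and genotype: 7 serpins, 5 cystatins, 2 Spink genes and 2 Timp genes.

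The families stop proteases in different ways. A serpin offers a reactive loop as bait and, once the loop is cut, traps a serine protease in a covalent complex, and clade b serpins mostly stay inside the cell while most other clades are secreted. Cystatin C (Cst3) and cystatins like it plug the active site of papain-like cysteine proteases such as the cathepsins. Whether the other cystatins followed here do so was not tested. Kazal domains block the active site of serine proteases such as trypsin and acrosin, and TIMPs bind the zinc of matrix metalloproteases. In the testis, spermatids load proteases into the acrosome, the vesicle that a sperm opens at the egg, and Sertoli, Leydig and peritubular cells remodel the tubule around them.

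The mice were knockout (KO), heterozygous (Het) or wild type (WT) for Wfdc15a, a gene of the WAP four-disulfide core family that includes further secreted protease inhibitors, and all were at postnatal day 25. Round spermatids, the haploid cells that follow meiosis, gave 3 KO, 2 Het and 2 WT libraries of 100 to 200 cells sorted by the fluorescence of a DNA dye, and whole testis gave 3 KO, 1 Het and 2 WT libraries. The labels name neither the deleted sequence nor the strain, and leave it unsaid whether replicates are separate animals; the p-values therefore speak only of the spread among these samples, which could be technical.

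Wfdc15a itself was at 116, 36.8 and 44.3 RPM in KO replicates 1, 2 and 3 and 48.4 RPM in the lone Het library, against 212 and 207 RPM in WT testis. Sorted cells had 97.9, 67.4 and 48.1 RPM in KO and 65.0 and 71.5 RPM in Het, against 267 and 234 RPM in WT round spermatids. It was thus lower in every KO and Het library than in WT, and absent from none. The libraries did not fall apart by genotype alone: in both cell types the first principal component (71.6% of the variance in testis, 55.6% in round spermatids) placed KO replicate 1 with the WT libraries, and the Het libraries with KO replicates 2 and 3. In testis, summed RPM of 21 Sertoli cell markers was 134, 2605 and 2822 in KO replicates 1, 2 and 3, 2468 in Het, against 175 and 167 in WT. Peritubular and stromal markers summed to 444, 1132 and 1630 RPM in KO, 1053 RPM in Het, against 122 and 101 RPM in WT testis, and to 120.0, 725 and 1206 RPM in KO, 652 and 589 RPM in Het, against 153 and 134 RPM in WT round spermatids. Late spermatid markers ran the other way in testis, with 5649, 3009 and 2866 RPM in KO, 2903 RPM in Het, against 9709 and 6730 RPM in WT. In a tissue, fewer cells of a type and less RNA per cell cannot be told apart, and the part that cell makeup had in the differences below was not tested. Round spermatid markers summed to 4354 to 6148 RPM in the sorted libraries and 2472 to 4276 RPM in testis. Library totals ran from 10825690 to 20927428 reads in round spermatids and from 7375270 (KO replicate 1) to 18438704 reads in testis, so a level of 0 allows up to 0.143 to 0.407 RPM (3 reads), for counting error alone. Testis KO replicate 1 also had the fewest genes with a read, 15435, against 20115 to 22587 in the other testis libraries. Its RPM over all genes summed to 900649, against 980990 to 1011784 in the other testis libraries. Whether its low values and zeros below come from lost transcripts was not tested.

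**Figure D1:**
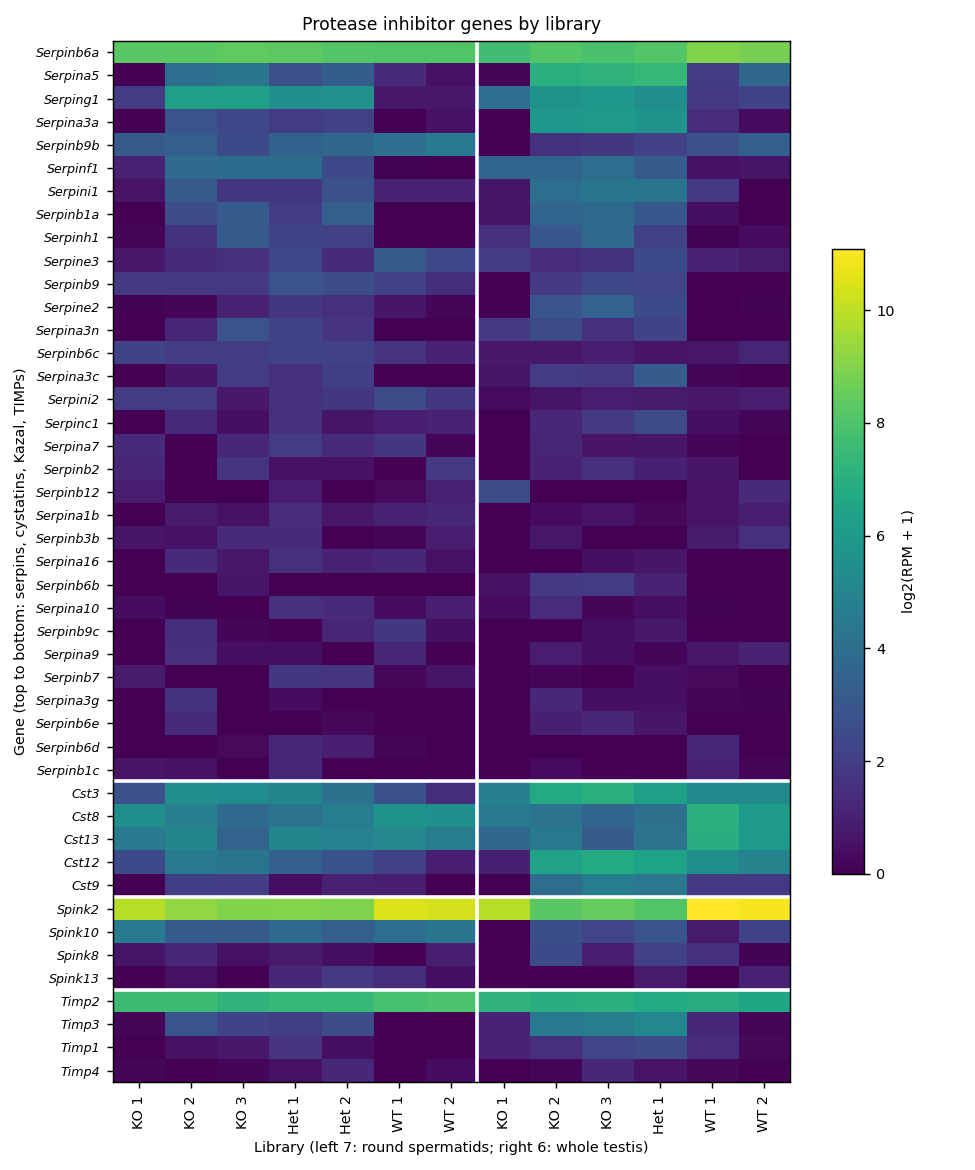
Level of the 45 measured inhibitor genes in each library, as log2(RPM + 1) on the colour scale, with serpins, cystatins, Spink genes and Timp genes from top to bottom. Columns are the 7 round spermatid libraries and then the 6 testis libraries, each ordered KO, Het, WT. Serpinb6a, Spink2 and Timp2 are bright in every column, while Serpina5, Serpina3a and Serpini1 are dark in the testis columns of KO replicate 1 and pale in those of Het and KO replicates 2 and 3.

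Spink2, the acrosomal Kazal inhibitor that spermatids of the mouse need to build the acrosome, had the highest mean RPM over the 13 libraries among the 87. It lies at chr5:77205107-77211471, minus strand, in mm10. In testis its level was 945, 305 and 349.8 RPM in KO replicates 1, 2 and 3 and 266 RPM in the lone Het library, against 2171 and 1976 RPM in WT testis, that is 533 ± 357 RPM in KO (SD, n = 3) and 2073 ± 137 RPM in WT (SD, n = 2). Every KO library and the Het library lay below both WT libraries, and KO replicate 1 lay between them and the other KO libraries. Round spermatids had 943, 630.3 and 503 RPM in KO and 515 and 489 RPM in Het, against 1467 and 1272 RPM in WT round spermatids. Here too KO replicate 1 came next below WT, and KO replicates 2 and 3 and both Het libraries were lowest. Spink2 held 67.2% of the summed RPM of all 87 genes in testis KO replicate 1, 23.4% and 24.8% in KO replicates 2 and 3, 21% in Het, and 68.5% and 71.2% in WT. In round spermatids its share was 59.9%, 44.1% and 40.3% in the KO libraries, 41.2% and 42.1% in Het, and 68.6% and 65.9% in WT. RPM were not divided by gene length here, so these are shares of reads and not of transcripts.

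The Spink2 promoter is shown because Spink2 has the highest mean level of the 87 and was lower in every KO and Het library than in WT in both cell types. It is a RefSeq window on GRCm38.p6, 250 bases before to 50 bases after the start site. The window is chr5:77211422-77211721 on the minus strand, read 5′ to 3′ along the gene, with 14 CG pairs in 300 bases. RefSeq had 3 windows for Spink2, and only the window nearest the annotated start of the gene is shown. Capitals mark the matches to the searched motifs: CTTTGT, the reverse complement of the SOX motif ACAAAG, and CCGCCC, the reverse complement of the SP1 motif GGGCGG.
Spink2 promoter: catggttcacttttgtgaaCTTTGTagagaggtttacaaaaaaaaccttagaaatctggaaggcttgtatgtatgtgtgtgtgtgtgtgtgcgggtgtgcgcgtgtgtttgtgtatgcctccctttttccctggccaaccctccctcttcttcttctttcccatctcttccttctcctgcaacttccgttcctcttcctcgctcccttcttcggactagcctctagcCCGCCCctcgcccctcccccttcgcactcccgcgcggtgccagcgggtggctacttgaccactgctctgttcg

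The other Kazal genes were low or silent. Spink10 was at 22.6, 8.38 and 7.81 RPM in KO and 13.5 and 8.87 RPM in Het, against 15.1 and 18.5 RPM in WT round spermatids. In testis its level was 0, 5.41 and 3.93 RPM in KO replicates 1, 2 and 3 and 6.33 RPM in the lone Het library, against 0.759 and 3.74 RPM in WT testis, so that it was higher in every round spermatid library than in any testis library. It overlaps the predicted gene Gm36368 on the opposite strand with no shared exon base, and Smart-seq2 does not record strand; over the 13 libraries the 2 levels had a Pearson correlation of 0.987. Spink8 and Spink13 were measured but stayed at or below 4.63 RPM. The remaining 8 (Spink1, Spink4, Spink5, Spink6, Spink7, Spink11, Spink12 and Spink14) were not measured, with 2.55 RPM as their highest value.

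**Figure D2:**
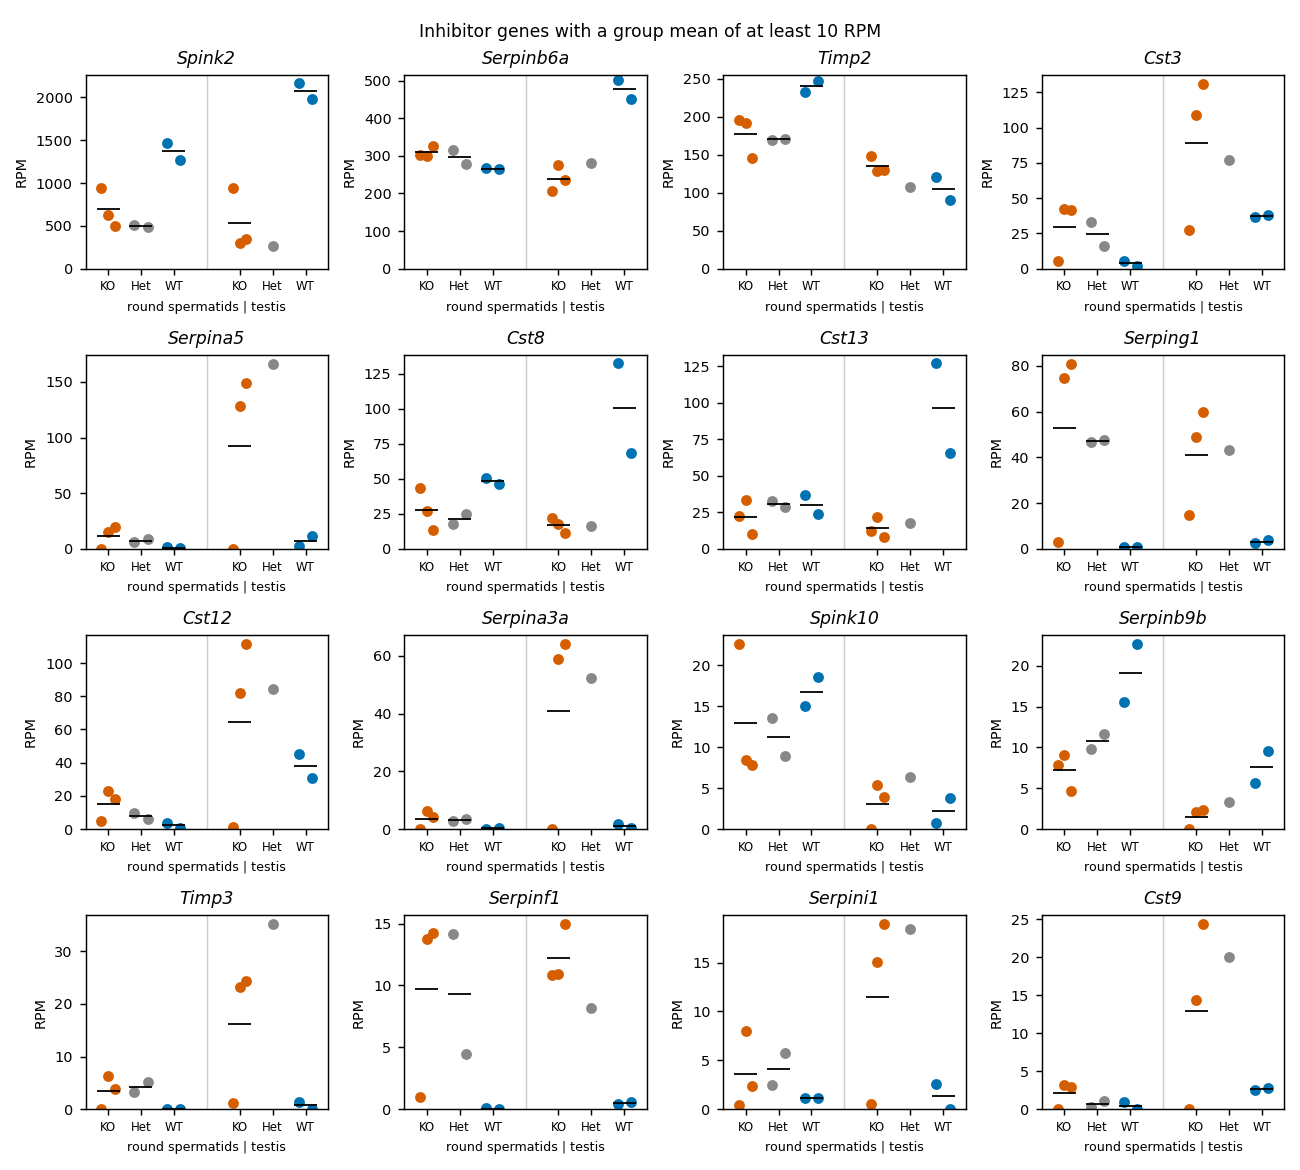
RPM of the 16 inhibitor genes whose mean reached 10 RPM in any group, with round spermatids left and testis right in each panel. Each point is a library, black lines are group means, and the y axis starts at 0 and differs between panels. For Spink2 every WT point lies above every KO and Het point in both cell types, and for Serping1 every KO and Het point lies above every WT point.

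The 5 measured cystatins, Cst12, Cst8, Cst13, Cst9 and Cst3, lie close together on chromosome 2, within 86.3 kb from the start of Cst12 to the end of Cst3. They did not move together. Cst8 (CRES), a cystatin of the reproductive tract, was at 22.0, 17.9 and 11.1 RPM in KO replicates 1, 2 and 3 and 16.2 RPM in the lone Het library, against 133 and 68.3 RPM in WT testis. Cst13, its neighbour, was at 12.3, 21.7 and 8.11 RPM in KO replicates 1, 2 and 3 and 17.8 RPM in the lone Het library, against 127 and 65.5 RPM in WT testis. For both, all 3 KO libraries and the Het library lay below both WT libraries. In round spermatids Cst8 was at 43.4, 27.1 and 13.7 RPM in KO and 17.4 and 24.7 RPM in Het, against 50.5 and 46.6 RPM in WT round spermatids. Cst13 was there at 22.3, 33.5 and 10.4 RPM in KO and 32.8 and 28.7 RPM in Het, against 36.7 and 24.0 RPM in WT round spermatids. For Cst13 the KO and Het libraries overlapped WT in round spermatids, while for Cst8 every KO and Het library was below WT.

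Cst12, 5.24 kb before Cst8, had another order in testis, with 0.949, 81.8 and 112 RPM in KO replicates 1, 2 and 3 and 84.2 RPM in the lone Het library, against 45.5 and 30.5 RPM in WT testis. Its lowest library was KO replicate 1, below WT, and its highest were KO replicates 2 and 3 and Het. Cst9 (testatin), 4.74 kb after Cst13 and known from the Sertoli cell lineage of the mouse, was at 0, 14.4 and 24.3 RPM in KO replicates 1, 2 and 3 and 20.1 RPM in the lone Het library, against 2.55 and 2.72 RPM in WT testis. It had no read in KO replicate 1 and was lower in WT than in Het and the other KO libraries. In round spermatids both were low: Cst12 was at 4.64, 22.9 and 18.2 RPM in KO and 9.59 and 6.0 RPM in Het, against 3.56 and 0.883 RPM in WT round spermatids. Cst9 was there at 0, 3.22 and 2.98 RPM in KO and 0.333 and 1.02 RPM in Het, against 0.935 and 0 RPM in WT round spermatids. KO replicates 2 and 3 were the highest libraries for each. Cst3 encodes cystatin C, a secreted inhibitor of cathepsins made in most tissues. In testis its level was 27.4, 109 and 131 RPM in KO replicates 1, 2 and 3 and 76.9 RPM in the lone Het library, against 36.8 and 38.2 RPM in WT testis. Round spermatids had 5.78, 42.2 and 41.5 RPM in KO and 32.8 and 16.4 RPM in Het, against 5.72 and 1.72 RPM in WT round spermatids. KO replicate 1 was below WT in testis and just above WT in round spermatids, and the other KO libraries and Het were higher than both. Of 3 cystatin-like neighbours that the symbol rule did not take, Cstl1 followed Cst8 and Cst13, at 11.5, 2.82 and 0.760 RPM in KO replicates 1, 2 and 3 and 6.53 RPM in the lone Het library, against 86.2 and 40.8 RPM in WT testis. Cstdc1 followed Cst12, at 0.136, 15.5 and 19.4 RPM in KO replicates 1, 2 and 3 and 13.7 RPM in the lone Het library, against 11.2 and 8.36 RPM in WT testis, and Cstdc2 stayed at or below 3.93 RPM in all libraries. Cst6, Cst7, Cst10 and Cst11 were not measured, with 1.47 RPM as their highest value.

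**Figure D3:**
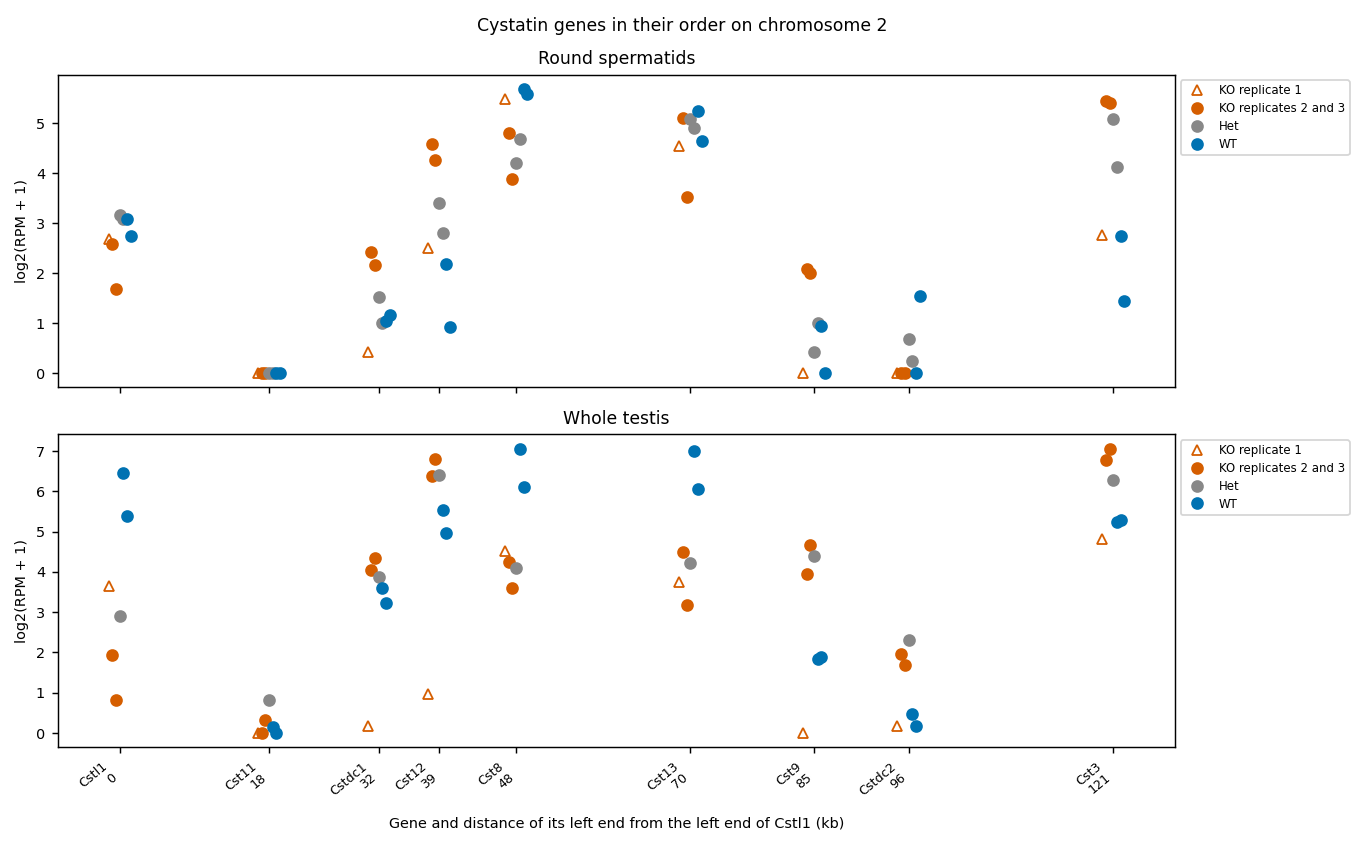
Level of the cystatin and cystatin-like genes, as log2(RPM + 1), against the distance of each gene's left end from that of Cstl1 in kb, with round spermatids above and testis below. Points are libraries, and the open triangle is KO replicate 1. In testis the WT points are highest for Cstl1, Cst8 and Cst13, and the Het and other KO points are highest for Cstdc1, Cst12, Cst9 and Cst3.

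The promoters of these neighbours are shown because genes a few kilobases apart took different orders of libraries in testis. The orders were not opposite: KO replicate 1 was below both WT testis libraries for each gene shown. Over the 13 libraries Cst12 had a Pearson correlation of -0.23 with Cst8 and 0.03 with Cst13. All are RefSeq windows on GRCm38.p6 of 300 bases, 250 before to 50 after the start site, read along the gene, which is on the plus strand for each. Cst8 is chr2:148798589-148798888 on the plus strand, Cst13 is chr2:148819849-148820148 on the plus strand, Cst12 is chr2:148789115-148789414 on the plus strand and Cst9 is chr2:148834897-148835196 on the plus strand. Capitals mark motif matches: in Cst8 the SOX motif ACAAAG, the RFX half-site GTTGCC and the SF-1 motif AAGGTCA; in Cst13 the reverse complement of the SF-1 motif, the reverse complement of the TATA box TATAAA and the SOX motif. Cst9 has the SOX motif on both strands, once after the start site, and Cst12 matches none of the 8 motifs.
Cst8 promoter: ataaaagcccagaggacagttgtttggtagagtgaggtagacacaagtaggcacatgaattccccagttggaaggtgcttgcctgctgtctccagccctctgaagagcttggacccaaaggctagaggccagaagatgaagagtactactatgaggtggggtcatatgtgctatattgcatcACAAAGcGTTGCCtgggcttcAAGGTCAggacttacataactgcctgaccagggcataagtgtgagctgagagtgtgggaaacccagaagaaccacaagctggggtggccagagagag
Cst13 promoter: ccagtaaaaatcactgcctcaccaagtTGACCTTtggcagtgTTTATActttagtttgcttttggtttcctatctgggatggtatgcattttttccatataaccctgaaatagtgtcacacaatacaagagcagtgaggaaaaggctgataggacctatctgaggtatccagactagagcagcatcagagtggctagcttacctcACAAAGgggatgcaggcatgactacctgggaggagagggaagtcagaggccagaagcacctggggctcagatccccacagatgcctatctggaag
Cst12 promoter: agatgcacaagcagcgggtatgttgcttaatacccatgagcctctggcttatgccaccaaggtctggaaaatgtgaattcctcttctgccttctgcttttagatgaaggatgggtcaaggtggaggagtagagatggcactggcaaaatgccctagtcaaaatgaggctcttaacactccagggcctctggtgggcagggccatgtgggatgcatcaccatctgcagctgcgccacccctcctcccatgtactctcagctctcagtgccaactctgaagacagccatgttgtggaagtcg
Cst9 promoter: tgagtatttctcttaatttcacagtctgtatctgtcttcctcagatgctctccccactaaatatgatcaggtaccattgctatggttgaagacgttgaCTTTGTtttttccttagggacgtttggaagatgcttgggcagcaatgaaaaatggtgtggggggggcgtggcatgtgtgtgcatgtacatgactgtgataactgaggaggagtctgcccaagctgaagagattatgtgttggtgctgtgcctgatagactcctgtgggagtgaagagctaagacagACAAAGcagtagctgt

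Searched on both strands, the motifs were in these shares of 27025 RefSeq promoter windows of the same length: TATAAA in 14.1%, CCAAT in 37.8%, the cAMP response element half-site TGACG in 20.7%, the GATA motif AGATAA in 11.3%, AAGGTCA in 4.7%, GTTGCC in 12.6%, GGGCGG in 35.6% and ACAAAG in 18.9%. No motif of the 8 contains another. AAGGTCA, the rarest of the 8, is present in Cst8 at position -47 from the start site and, on the other strand, in Cst13 at position -223, and it is absent from the windows of Cst12 and Cst9. A match is a description of these letters and shows no binding. Of the 87 genes, 65 had a promoter in the table, and 38 of the 45 measured ones.

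Among serpins, Serpinb6a stood alone in level and in pattern. It encodes an intracellular clade b serpin, related to the human inhibitor of cathepsin G, and lies at chr13:33917918-34002794, minus strand. In testis its level was 205, 275 and 237 RPM in KO replicates 1, 2 and 3 and 279.9 RPM in the lone Het library, against 501 and 451 RPM in WT testis. All KO libraries and Het were below WT, KO replicate 1 lowest. Round spermatids had 303, 299 and 327 RPM in KO and 314 and 277 RPM in Het, against 267 and 265 RPM in WT round spermatids, so that all 7 libraries lay within a narrow band and every KO library was slightly above WT. Its exons share bases with those of Nqo2, Ripk1 and 1110046J04Rik on the opposite strand, whose levels were 27.4, 29.0 and 12.2 RPM at most. Serpinb9b, a clade b relative of the granzyme B inhibitor Serpinb9, was at 7.84, 9.08 and 4.68 RPM in KO and 9.86 and 11.6 RPM in Het, against 15.5 and 22.7 RPM in WT round spermatids. In testis it was lower, with 0, 2.04 and 2.34 RPM in KO replicates 1, 2 and 3 and 3.36 RPM in the lone Het library, against 5.69 and 9.57 RPM in WT testis. The predicted antisense gene Gm36099 shares 278 exon bases with it and had a Pearson correlation of 0.995 with it over the 13 libraries, so the 2 cannot be told apart without strand.

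Serpina5, Serpina3a and Serpini1, which encode secreted serpins, shared another pattern. Serpina5, the protein C inhibitor that male mice need for fertility, was at 0.136, 128 and 149 RPM in KO replicates 1, 2 and 3 and 166 RPM in the lone Het library, against 2.93 and 11.5 RPM in WT testis. Sorted cells held less of it, 0, 14.9 and 19.4 RPM in KO and 5.79 and 8.59 RPM in Het, against 1.52 and 0.392 RPM in WT round spermatids. Serpina3a, which starts 6.59 kb after Serpina5 on chromosome 12 and belongs to a mouse cluster of antichymotrypsin-like genes, was at 0, 58.8 and 64.1 RPM in KO replicates 1, 2 and 3 and 52.4 RPM in the lone Het library, against 1.63 and 0.253 RPM in WT testis. Both were at or near 0 in KO replicate 1 and low in WT, against more than 50 RPM in the Het library and in KO replicates 2 and 3. In round spermatids Serpina3a was at 0, 6.15 and 4.12 RPM in KO and 2.93 and 3.51 RPM in Het, against 0 and 0.441 RPM in WT round spermatids, with no library above 10 RPM. Serpini1 (neuroserpin), an inhibitor of tissue plasminogen activator, was at 0.542, 15.1 and 18.9 RPM in KO replicates 1, 2 and 3 and 18.4 RPM in the lone Het library, against 2.60 and 0 RPM in WT testis, again with KO replicate 1 and WT low. Its round spermatid levels were 0.478, 8.03 and 2.34 RPM in KO and 2.46 and 5.73 RPM in Het, against 1.11 and 1.18 RPM in WT round spermatids. Serpina3a and the other Serpina3, Serpina1, Serpinb6 and Serpinb9 genes have related copies, whose likeness in sequence was not measured here. How reads between copies were assigned is not given in the sources used here, so their levels are uncertain.

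Serpina5's promoter is shown as that of the secreted serpin with the widest range between libraries, from RefSeq on GRCm38.p6, chr12:104100863-104101162 on the plus strand. Capitals mark the SOX motif ACAAAG and the CCAAT box, which here falls just after the start site.
Serpina5 promoter: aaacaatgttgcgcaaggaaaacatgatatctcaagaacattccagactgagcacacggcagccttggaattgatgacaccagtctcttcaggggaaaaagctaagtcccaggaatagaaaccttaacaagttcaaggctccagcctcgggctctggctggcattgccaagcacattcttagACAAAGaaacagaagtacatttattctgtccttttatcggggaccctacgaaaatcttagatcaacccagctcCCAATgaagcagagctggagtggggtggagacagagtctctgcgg

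In Serping1 and Serpinf1 KO replicate 1 did not sit with WT in testis. Serping1, the C1 inhibitor of complement, was at 14.9, 49.0 and 59.9 RPM in KO replicates 1, 2 and 3 and 43.1 RPM in the lone Het library, against 2.66 and 3.67 RPM in WT testis. Its levels in the sorted cells were 2.96, 74.7 and 80.9 RPM in KO and 46.8 and 47.7 RPM in Het, against 0.701 and 0.638 RPM in WT round spermatids. Every KO and Het library was above every WT library in both cell types, with KO replicate 1 between. Serpinf1, the pigment epithelium-derived factor, binds collagen and no longer inhibits proteases. It was at 10.8, 10.9 and 14.9 RPM in KO replicates 1, 2 and 3 and 8.16 RPM in the lone Het library, against 0.434 and 0.570 RPM in WT testis, and KO replicate 1 was level with KO replicate 2. Sorted cells had 1.0, 13.8 and 14.3 RPM in KO and 14.1 and 4.43 RPM in Het, against 0.0584 and 0 RPM in WT round spermatids, and KO replicate 1 was nearest to WT.

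The 25 other measured serpins had no group mean of 10 RPM, and 13.3 RPM as their highest single value. That value was shared by Serpinb1a, an inhibitor of neutrophil proteases, and Serpinh1, the collagen chaperone HSP47, both in testis KO replicate 3. Serpina3n is a secreted inhibitor that includes granzyme B among its targets. Its testis levels were 2.58, 4.79 and 1.90 RPM in KO replicates 1, 2 and 3. The lone Het testis library had 3.74 RPM, against 0 and 0 RPM in WT testis. Among the sorted cells, Serpina3n reads were missing from both WT libraries and also from KO replicate 1, so KO and WT overlapped there. The sorted KO replicates 2 and 3 gave 1.29 and 6.18 RPM, and the sorted Het libraries 3.80 and 2.22 RPM. Serpinb6b was at 0.407, 2.67 and 2.91 RPM in KO replicates 1, 2 and 3 and 1.06 RPM in the lone Het library, against 0 and 0 RPM in WT testis. Serpine3, whose exons share 348 bases with Ints6 on the opposite strand, was at 0.669, 1.58 and 1.85 RPM in KO and 4.26 and 1.48 RPM in Het, against 7.77 and 4.37 RPM in WT round spermatids. In testis its level was 2.85, 1.65 and 2.09 RPM in KO replicates 1, 2 and 3 and 4.61 RPM in the lone Het library, against 1.14 and 0.760 RPM in WT testis. Ints6 ranged from 45.4 to 189 RPM over the 13 libraries. The 30 serpins that were not measured reached at most 4.44 RPM in a single library. Of 23 serpins on chromosome 12, 9 were measured, as were 10 of 16 on chromosome 13 and 6 of 13 on chromosome 1.

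Timp2, which inhibits metalloproteases and also helps MMP14 activate MMP2, was at 90.4 RPM or more in every library. It lies at chr11:118301069-118355740, minus strand. Round spermatids had 195, 192 and 146 RPM in KO and 169.6 and 171 RPM in Het, against 233 and 247 RPM in WT round spermatids. In testis its level was 149, 128 and 129 RPM in KO replicates 1, 2 and 3 and 107 RPM in the lone Het library, against 120.2 and 90.4 RPM in WT testis. Every round spermatid library was above every testis library except KO replicate 3, which lay just below testis KO replicate 1. The gene Cep295nl lies inside Timp2 on the same strand with no shared exon base, ranged from 38.9 to 175 RPM, and had a Pearson correlation of 0.981 with Timp2 over the 13 libraries. Timp3, the TIMP that stays bound to the matrix, was at 1.08, 23.1 and 24.4 RPM in KO replicates 1, 2 and 3 and 35.1 RPM in the lone Het library, against 1.41 and 0.127 RPM in WT testis. Sorted cells had 0.0956, 6.39 and 3.76 RPM in KO and 3.20 and 5.08 RPM in Het, against 0 and 0 RPM in WT round spermatids. KO replicate 1 was close to WT in both. Timp3 shares 1733 exon bases with Syn3 on the opposite strand, so without strand its level may include reads of Syn3. Syn3 ranged from 1.08 to 43.6 RPM, with a mean of 14.7 RPM against 7.98 RPM for Timp3. Their Pearson correlation was 0.787 over the 13 libraries. Timp1 and Timp4 were at or below 4.80 RPM.

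Levels of different genes can be set side by side only per length, and here they are given for WT. In WT round spermatids the mean level per kilobase of exon was 1738 ± 175 RPM for Spink2, 61.6 ± 2.65 for Timp2, 56.9 ± 3.26 for Cst8, 49.1 ± 0.27 for Serpinb6a and 38.8 ± 11.4 for Cst13 (SD, n = 2 each). In WT testis it was 2631 ± 174 RPM per kilobase for Spink2, 27.0 ± 5.41 for Timp2, 118 ± 53.3 for Cst8, 88.1 ± 6.52 for Serpinb6a and 123 ± 55.5 for Cst13 (SD, n = 2 each). Spink2 was first in both. Below it in WT testis, Cst13, Cst8 and Serpinb6a lay within their spread of each other, followed by Cst12 at 58.0 ± 16.2, Cst3 at 29.6 ± 0.77 and Timp2, the last pair also within their spread. In WT round spermatids Cst12 was at 3.39 ± 2.89 and Cst3 at 2.94 ± 2.24 RPM per kilobase. Means over all genotypes differ from these: for Cst12 they were 14.3 RPM per kilobase in round spermatids and 90.2 in testis, and for Serpina5, at 0.44 and 3.34 in WT, they were 3.34 and 35.3.

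In whole testis, Spink2, Cst8, Cst13, Serpinb6a and Serpinb9b were lower in every KO library than in either WT library, and Serping1 and Serpinf1 higher, but none of these differences passed the test. Differences of KO against WT were tested on log2(RPM + 1), which understates the changes of low genes, with limma's moderated linear model and Benjamini-Hochberg adjustment over all genes. No inhibitor passed an adjusted p of 0.05, 0 of 29 tested, as was the case for 0% of the 18570 genes tested. At an unadjusted p under 0.05 were 9 of the 29, against 23.6% of all genes. Voom on the recovered reads called 0 inhibitors, beside 0% of all genes. The nearest were Serpinf1 at 3.13 (SE 0.69, limma adjusted p = 0.0785), Cst8 at -2.47 (SE 0.55, limma adjusted p = 0.0785) and Cst13 at -2.72 (SE 0.61, limma adjusted p = 0.0785). Spink2 was at -2.15 (SE 0.51, limma adjusted p = 0.0832), Serping1 at 3.14 (SE 0.75, limma adjusted p = 0.0833), Serpinb6a at -1.0 (SE 0.28, limma adjusted p = 0.109) and Serpina3n at 1.97 (SE 0.58, limma adjusted p = 0.119).

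The median of all genes was itself 0.63 higher in KO than in WT testis on this scale, and the median of the 29 inhibitors was 0.95. Relative to the median of all genes, Spink2 stood at -2.78, Cst13 at -3.35, Cst8 at -3.10, Serpinb6a at -1.63, Serping1 at 2.51 and Serpinf1 at 2.50. KO and WT libraries did not overlap for 9 inhibitors that were higher in KO (28.2% of all genes did so) and for 5 that were lower (14.1% of all genes). The 5 were Spink2, Cst8, Cst13, Serpinb6a and Serpinb9b; the 9 included Serping1, Serpinf1, Serpinh1, Serpinb1a, Serpina3n and Timp2, the last of which turned to -0.57 when each library was centred on its median. These shares of 31.0% and 17.2% of the 29 were close to those of all genes.

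Leaving out testis KO replicate 1 gave calls for 22 of 28 inhibitors (17 higher and 5 lower in KO), beside 65.2% of all genes. KO replicates 2 and 3 lay opposite to both WT libraries on the first principal component. Genotype and that grouping of libraries therefore cannot be told apart in this fit. Spink2 was then at -2.66 (SE 0.11, limma adjusted p = 3.45e-05), Serping1 at 3.74 (SE 0.30, limma adjusted p = 0.000115), Cst8 at -2.67 (SE 0.39, limma adjusted p = 0.00105) and Serpinf1 at 3.20 (SE 0.38, limma adjusted p = 0.000455). The Het library took the side of the KO libraries that remained: for 28 of 29 inhibitors (96.6%, against 86.6% of all genes) it was nearer to the mean of KO replicates 2 and 3 than to that of WT. KO replicates 2 and 3 against the lone Het library gave 0.30 for Spink2, 0.32 for Serping1 and -0.19 for Cst8. They gave -0.39 for Cst13, -0.13 for Serpinb6a and 0.59 for Serpinf1. KO replicate 1 alone against WT, with that lone library assumed to vary like the others, called 12 of 29 inhibitors, beside 37.7% of all genes. It gave -1.13 (SE 0.13, limma adjusted p = 0.00175) for Spink2, -2.07 (SE 0.47, limma adjusted p = 0.015) for Cst8, -1.21 (SE 0.16, limma adjusted p = 0.00263) for Serpinb6a, 1.94 (SE 0.36, limma adjusted p = 0.00731) for Serping1 and 2.98 (SE 0.46, limma adjusted p = 0.00365) for Serpinf1. These 5 were named because KO and WT did not overlap, which fixes the sign of these values. For Serpina5 the same contrast gave -2.63, for Cst9 -1.86 and for Serpina3a -0.86, while KO replicates 2 and 3 were above WT for all 3.

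**Figure D4:**
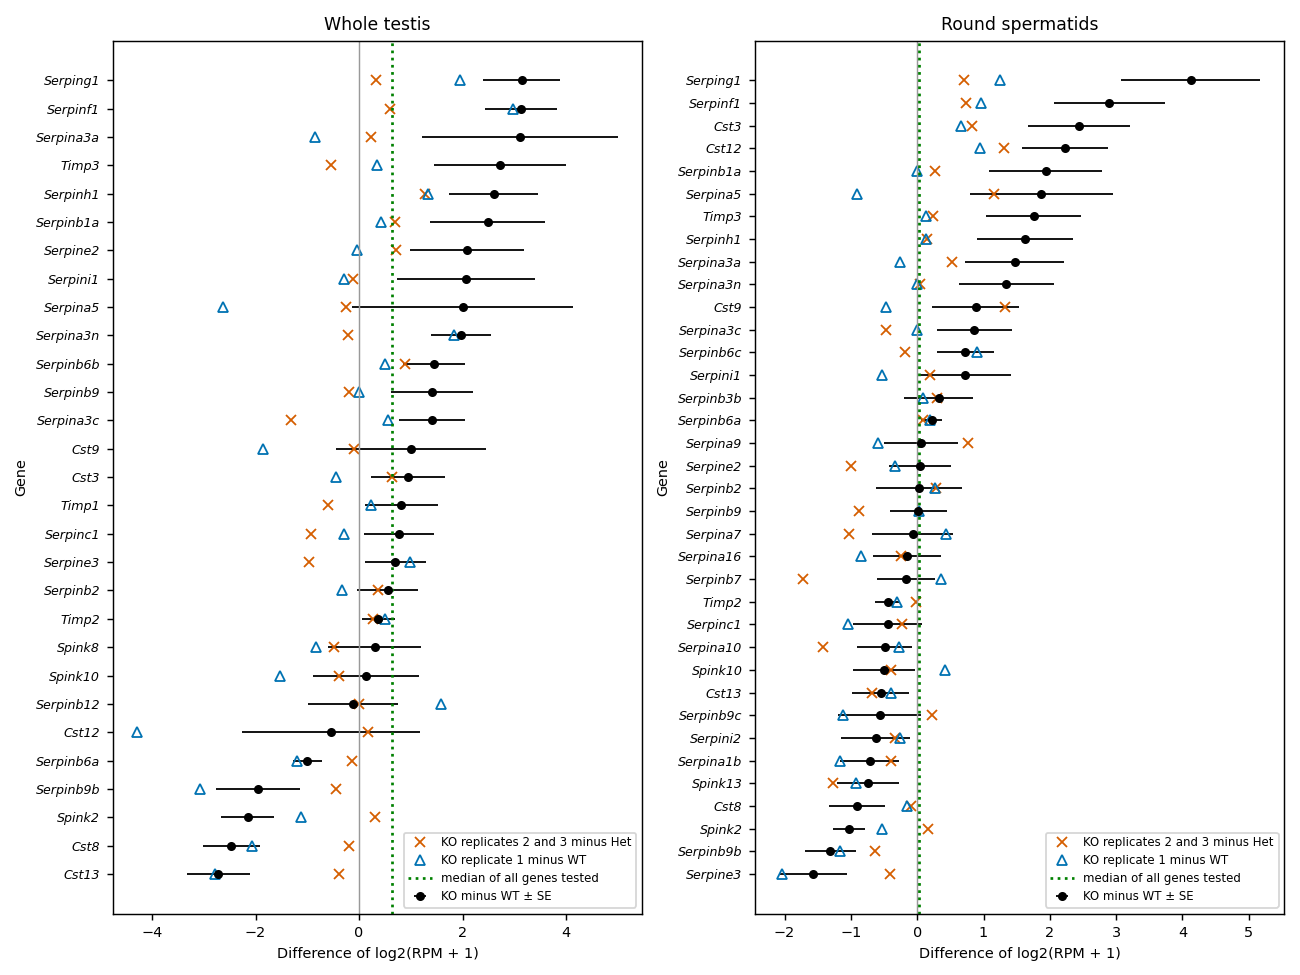
KO minus WT difference of log2(RPM + 1) for each tested inhibitor (black points, bars are the SE), in testis on the left and round spermatids on the right. Crosses give KO replicates 2 and 3 minus Het, open triangles KO replicate 1 minus WT, and the dotted line the median of all genes tested. For Spink2, Cst8, Serping1 and Serpinf1 the crosses lie nearer to 0 than the black points in both panels.

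In round spermatids, Spink2, Serpinb9b, Cst8 and Timp2 were lower in every KO library than in either WT library, and Serping1, Serpinf1, Cst12 and Cst3 higher, but 0 of 36 inhibitors passed the test, against 0% of 18075 genes. At an unadjusted p under 0.05 were 11 of the 36, against 21.1% of all genes. Voom called 0 inhibitors, beside 0% of all genes. Spink2 was nearest at -1.03 (SE 0.23, limma adjusted p = 0.125), with 692 ± 226 RPM in KO (SD, n = 3) and 1369.6 ± 138 RPM in WT (SD, n = 2). Higher in KO were Serping1 at 4.12 (SE 1.05, limma adjusted p = 0.128), Serpinf1 at 2.90 (SE 0.84, limma adjusted p = 0.137), Cst12 at 2.23 (SE 0.65, limma adjusted p = 0.137) and Cst3 at 2.44 (SE 0.77, limma adjusted p = 0.144). Lower in KO were Serpinb9b at -1.31 (SE 0.39, limma adjusted p = 0.137) and Serpine3 at -1.57 (SE 0.51, limma adjusted p = 0.151). Groups did not overlap for 8 inhibitors that were higher in KO (22.2% of the 36, against 16.6% of all genes). The same held for 7 that were lower (19.4% of the 36, against 19.4% of all genes). The median of the 36 equalled that of all genes, 0.03.

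Leaving out round spermatid KO replicate 1 gave calls for 16 of 36 inhibitors (11 higher and 5 lower in KO), beside 30.8% of all genes. Here too genotype and the grouping on the first principal component cannot be told apart. Spink2 was then at -1.28 (SE 0.12, limma adjusted p = 6.49e-06) and Serping1 at 5.56 (SE 0.29, limma adjusted p = 8.65e-09). The Het libraries were nearer to KO replicates 2 and 3 than to WT for 26 of 36 inhibitors (72.2%, against 71.3% of all genes). KO replicates 2 and 3 against Het gave 0.17 for Spink2, 0.71 for Serping1, 1.31 for Cst12 and 0.82 for Cst3. This contrast called 0 inhibitors, beside 0.0166% of all genes. The summed Sertoli markers of these sorted cells were 54.1, 378 and 391 RPM in KO, 200.0 and 231 RPM in Het, against 82.5 and 88.5 RPM in WT. The part of such RNA in the Serping1, Cst3, Cst12 and Timp3 values was not tested.

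Whether the KO effect differed between cell types was tested in a fit of all 13 libraries. Of 45 inhibitors, 1 passed, Serpinb6a, against 2.13% of the 20085 genes tested, 0.294% in its direction and 1.84% in the other. Its KO effect was more positive in round spermatids by 1.22 (SE 0.28, limma adjusted p = 0.0488): testis had 239 ± 35 RPM in KO (SD, n = 3) and 476 ± 35.2 RPM in WT (SD, n = 2), and round spermatids 309.8 ± 15 RPM in KO (SD, n = 3) and 266 ± 1.46 RPM in WT (SD, n = 2). The call was near the threshold, and was lost when any single KO or WT library was left out except testis KO replicate 1, with values of 1.14 to 1.33 and adjusted p up to 0.205. It was also lost with centred libraries (2.04, adjusted p = 0.155) and quantile normalization (0.89, adjusted p = 0.182). Next were Serpine3 at -2.27 (SE 0.73, limma adjusted p = 0.131), Cst13 at 2.17 (SE 0.77, limma adjusted p = 0.169), Timp2 at -0.82 (SE 0.33, limma adjusted p = 0.227), Cst8 at 1.56 (SE 0.71, limma adjusted p = 0.29) and Serpinb6b at -1.23 (SE 0.61, limma adjusted p = 0.335), none of which passed. The median over all genes was -0.48 and over the 45 inhibitors -0.29.

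Round spermatids against testis were compared in WT. Of 45, 2 passed, against 11.5% of 20085 genes: Timp2 was higher in round spermatids at 1.20 (SE 0.25, limma adjusted p = 0.0118) and Serpinb6a lower at -0.84 (SE 0.21, limma adjusted p = 0.028). Timp2 averaged 240.1 ± 10.3 RPM in WT round spermatids and 105 ± 21.1 RPM in WT testis (SD, n = 2 each). Serpinb6a averaged 266 ± 1.46 RPM in WT round spermatids and 476 ± 35.2 RPM in WT testis (SD, n = 2 each). Both calls rest on few libraries: Timp2 lost its call without testis WT replicate 2 (adjusted p = 0.0964) or without either WT round spermatid library (0.0788 and 0.0983), and Serpinb6a without any of the 4 WT libraries (adjusted p from 0.0898 to 0.174). Both were lost with centred and with quantile-normalized libraries, where Timp2 was at 0.85 (adjusted p = 0.401) and 0.80 (adjusted p = 0.0858), and Serpinb6a at -1.19 (adjusted p = 0.141) and -0.78 (adjusted p = 0.0598).

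The 5 cystatins were all lower in WT round spermatids than in WT testis with no overlap, part of 15 of 45 inhibitors that were so (23.7% of all genes), and none of the 5 passed in the fit of all 13 libraries. Cst3 was at -3.17 (SE 0.95, limma adjusted p = 0.0537), Cst12 at -3.71 (SE 1.54, limma adjusted p = 0.16) and Cst13 at -1.59 (SE 0.60, limma adjusted p = 0.12). Cst3 was close to the threshold and depended on the processing: its adjusted p ranged from 0.000252 with library quality weights to 0.308 without WT round spermatid replicate 2, and it passed on the log2 values as deposited (0.0489), with a mean of at least 5 RPM (0.0428), with centred (0.0179) or quantile-normalized libraries (0.0236) and from the 4 WT libraries alone (0.00133). The 4 WT libraries alone also called Cst12 (0.00085) and Cst13 (0.00796), beside 37.5% of all genes, and quality weights called both (0.000118 and 0.0394), beside 31% of all genes; voom called Cst13 (0.0489). These are adjusted p-values of limma. Without overlap, 12 inhibitors were higher in round spermatids (38.6% of all genes), among them Serpine3 at 1.82 (SE 0.57, limma adjusted p = 0.0634) and Spink10 at 2.62 (SE 0.90, limma adjusted p = 0.0916).

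In the Het libraries and KO replicates 2 and 3 the same contrast called 16 inhibitors, 4 higher and 12 lower in round spermatids, with 49% of all genes called. Serpina5 was there at -3.66 (SE 0.39, limma adjusted p = 1.19e-05), Serpina3a at -3.52 (SE 0.36, limma adjusted p = 9.03e-06), Cst9 at -2.98 (SE 0.36, limma adjusted p = 3.11e-05) and Cst12 at -2.74 (SE 0.33, limma adjusted p = 2.55e-05). Spink2 was higher in round spermatids by 0.85 (SE 0.10, limma adjusted p = 2.43e-05), where WT gave -0.60 (SE 0.46, limma adjusted p = 0.486), and Timp2 by 0.52 (SE 0.14, limma adjusted p = 0.00737). Serpinb6a was at 0.18 (SE 0.11, limma adjusted p = 0.163), with the opposite sign to WT, as were Cst13 at 0.61 and Cst8 at 0.38. Whether the contrast differed between these libraries and WT was not tested.

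**Figure D5:**
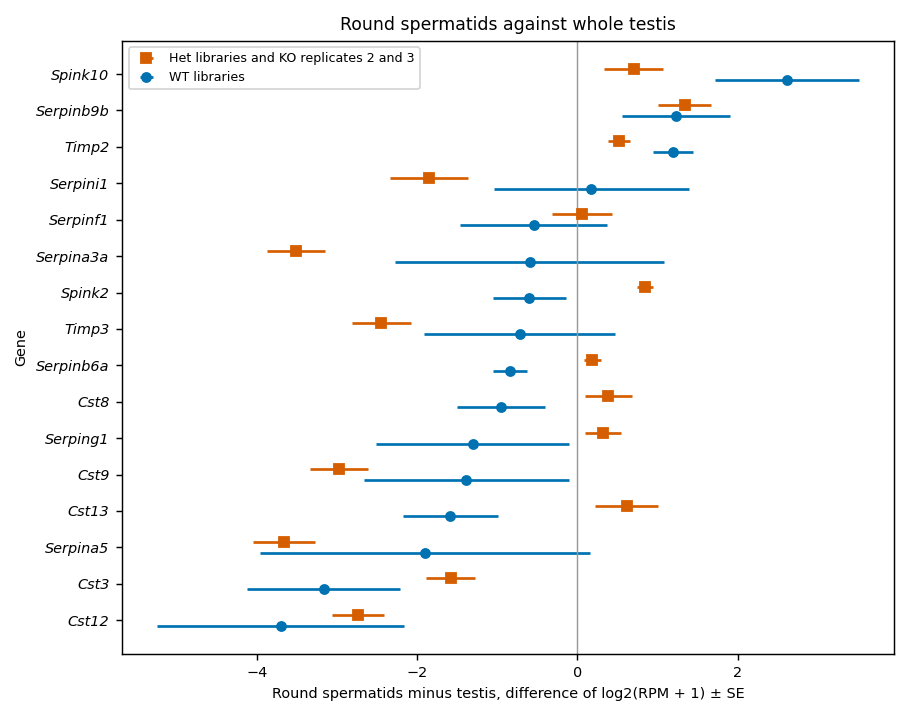
Round spermatids minus testis, as the difference of log2(RPM + 1), for the 16 inhibitors with a group mean of at least 10 RPM. Squares are Het libraries with KO replicates 2 and 3, circles are WT, and bars are the SE. Timp2, Serpinb9b and Spink10 lie right of 0 in both, Cst3, Cst12, Cst9 and Serpina5 lie left of 0 in both, and Spink2, Serpinb6a, Cst8 and Cst13 change sides.

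Serine, cysteine and metalloproteases were counted from lists chosen for their function. In neither KO against WT comparison was any of them called. Whether the inhibitors bind each listed protease was not tested. In testis 32 serine proteases had a median difference of -0.11, 16 cysteine proteases 1.76 and 20 metalloproteases 1.29, beside 0.63 over all genes. In round spermatids 31 serine proteases had a median of 0.19, 14 cysteine proteases 1.18 and 18 metalloproteases 0.91, beside 0.03 over all genes. Cathepsin L (Ctsl), a Sertoli and lysosomal cysteine protease that cystatin C inhibits, was at 2.87 in testis (limma adjusted p = 0.452). Cathepsin B (Ctsb) was at 3.69 there (limma adjusted p = 0.129). The acrosomal proteases acrosin (Acr) and Prss39 were at 1.22 (limma adjusted p = 0.158) and -1.82 (limma adjusted p = 0.123).

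For WT round spermatids against WT testis, 3 of 33 serine proteases rose and 2 fell, beside 9.09% and 2.39% of all genes. Acr was higher by 1.49 (SE 0.34, limma adjusted p = 0.0158) and Prss46 by 2.38 (SE 0.44, limma adjusted p = 0.00594); Prss54 also rose, and Prss44 and Prss45 fell, 3 genes named after their values were seen. Of 20 metalloproteases 1 rose, Mmp28, by 2.31 (SE 0.46, limma adjusted p = 0.00832), and of 16 cysteine proteases 0 were called by limma. Among 35 other protease inhibitors, calpastatin (Cast), which blocks calpains, rose by 2.30 (SE 0.24, limma adjusted p = 0.000478), and 2 fell, Cstl1 and Wfdc10, named after their values were seen. Of 19 serpin receptors, cofactors and partners 2 rose, among them Pnpla2, a lipase that binds Serpinf1, by 1.0 (SE 0.26, limma adjusted p = 0.0269).

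The genes most like the abundant inhibitors over the 13 libraries, by Pearson correlation of log2(RPM + 1) and as a description only, were Lypd9 (0.993), Dynlt1b (0.990) and Dock2 (0.987) for Spink2. For Serpina5 they were Pdia5 (0.990), Il6ra (0.987) and Mat2a (0.981). For Serpinb6a the closest was AI429214 (0.966), for Cst3 Get1 (0.961) and for Cst8 H2ap (0.971). Within the inhibitors Cst8 correlated with Spink2 at 0.904 and with Cst13 at 0.860, but with its other neighbour Cst12 at -0.23. Serpina5 correlated with Cst9 at 0.952, with Serpina3a at 0.940 and with Timp3 at 0.908. All points share the library's depth and cell makeup.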

How the data were processed

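Poly(A) RNA of 6 whole testis libraries (about 2 ng RNA each) and 7 libraries of 100 to 200 sorted round spermatids was copied with Smart-seq2, which does not record strand, per the labels' protocols. Per the submitters' processing notes, the authors' tools were HISAT2 2.1.0, Trim Galore 0.6.6 and FastQC 0.11.8, with build mm10; the counting program and its annotation were not given in the sources used here. The deposited table gives log2 RPM values for 30479 genes, which the authors scaled by a library total, with 0.9 read for a gene with no read. The reads were recovered from these log2 values (99.704% to 99.995% of values per library were whole within 0.01 read), genes with no read were set to 0, and no column of other samples was present (0 columns). Intervals and limits cover counting error only, since Smart-seq2 reads are not independent molecules. No pair of libraries of a group agreed within sampling noise (smallest chi-square per degree of freedom 10.62).

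A gene entered a fit when 2 or more of its libraries reached 1 RPM, and differences of log2(RPM + 1) were tested with limma 3.58.1 in R 4.3.3 (lmFit, eBayes with trend, two-sided, Benjamini-Hochberg over all genes of the fit, threshold 0.05). Each cell type was fitted with its 3 genotypes for KO against WT, and all 13 libraries for the other comparisons. The fits were tested on simulated data. Lengths, exons and coordinates came from GENCODE M21 (86 of the 87 inhibitor genes at identical coordinates). Named with every library's value were inhibitors with a group mean of at least 10 RPM, those passing the threshold, and the 3 with the smallest p in each direction of each comparison; others are named after their values were seen. The inhibitors and lists were chosen with earlier results of these data known. Replicate numbers were not taken to pair libraries, since not every same-numbered pair had deviations correlated above 0.1: KO and WT libraries gave 0.003 to 0.046 and WT libraries across cell types -0.023, although KO libraries across cell types gave 0.504, 0.283 and 0.403. Alternatives were other pseudocounts, filters and scalings, quality weights, voom on the recovered reads, a replicate block, fits with or within the grouping of libraries that the first principal component shows (KO replicate 1 with WT, Het with KO replicates 2 and 3), and leaving out each library.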

Additional observations from a re-analysis of the deposited data

Results flagged for a closer look

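The KO effect on Serpinb6a, an intracellular serpin, differed between cell types in the test of that difference: it was 1.22 more positive in round spermatids than in testis (limma adjusted p = 0.0488), and the adjusted p ranged from 0.000632 to 0.205 over the alternatives. For 3 other inhibitors every KO library lay on one side of every WT library in testis and on the opposite side in round spermatids, and the test of the difference did not pass. In testis alone, KO lay wholly above WT for 28.2% of all genes tested and wholly below for 14.1%. In round spermatids alone these shares were 16.6% and 19.4%. How many of all genes took opposite sides in the 2 cell types was not counted, so the 3 cannot be called unusual. Timp2 was higher in KO testis (0.37, but -0.57 with centred libraries) and lower in KO round spermatids, with a difference of -0.82 (limma adjusted p = 0.227). Serpine3 had the same pair of directions (0.70 in testis, but -0.24 with centred libraries) and a difference of -2.27 (limma adjusted p = 0.131). Serpina10, which was at or below 1.93 RPM in every library, had a difference of -1.10 (limma adjusted p = 0.345). Its sides rest on few reads: 2, 21 and 2 in KO testis, against 1 and 0 in WT testis. In round spermatids KO replicate 1 was at 0.287 RPM, against 0.292 RPM in WT replicate 1. Serpina10 was too low to enter the testis fit. No group held 4 samples, so no test for a single distant library was applied within groups. KO replicate 1 stood apart from KO replicates 2 and 3 in both cell types: on the first principal component it was at 60.93, against -49.26 and -60.59 for the other KO libraries, in round spermatids, and at 126.39, against -121.27 and -123.61, in testis.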

How the results depend on the processing

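The counts of inhibitors called depended on which libraries and weights were used, and are set beside the share of all genes called in the same fit, in parentheses. For KO against WT in testis, 0 in the planned fit became 24 with library quality weights (67.5%), 12 with the grouping of libraries as a covariate (37.7%; the same 12 from KO replicate 1 against WT) and 8 in a fit of all 13 libraries (20.7%), and 0 to 22 with each library left out (65.2% for the 22, without KO replicate 1). In round spermatids 0 became 16 with quality weights (31.6%) and 0 to 16 with each library left out (30.8% for the 16, without KO replicate 1). The difference of KO effects (1 called) gave 0 with centred (0%) or quantile-normalized libraries (0.00498%) and with a replicate block (2.94%), 11 with quality weights (34.6%), 4 with the covariate (26.3%) and 0 to 8 with each library left out, the 8 without testis KO replicate 1 (31.1%). Round spermatids against testis in WT (2 called) gave 4 on the log2 values as deposited (11.7%), 4 with voom (12.7%) and 1 with centred libraries (5.88%). It gave 10 with quality weights (31%), 5 with a replicate block (13.5%) and 12 of 21 tested from the 4 WT libraries alone (37.5%). Averaging over genotypes gave 7 (16.5%), and the Het libraries with KO replicates 2 and 3 gave 16 (49%). With a WT library left out, 0 or 1 were called (3.37% to 5.83%). With quantile normalization 2 were called (9.25%), and 0 of them were shared with the planned fit.

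With the replicate block, the difference of KO effects for Serpinb6a was 1.22 (limma adjusted p = 0.0583), and round spermatids minus testis in WT had a limma adjusted p of 0.00352 for Cst3, 0.0229 for Cst12 and 0.0332 for Cst13. Over all genes the block gave 152 calls for KO against WT in testis, where there were 0 without it. Each round spermatid KO library correlated best with the testis KO library of its own number, but for KO replicate 2 narrowly (0.283, against 0.266 with testis KO replicate 3). Testis KO replicate 2 correlated better with round spermatid KO replicate 3 (0.345) than with its own number. This is at most a hint from the data, not the design.

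Directions turned in these cases among others. KO replicates 2 and 3 against Het gave -0.21 for Serpina3n and 0.30 for Spink2 in testis, and 0.17 for Spink2 in round spermatids. Centring gave -0.57 for Timp2 and -0.24 for Serpine3 in testis and 0.01 for Timp2 in the difference of KO effects. In the Het libraries and KO replicates 2 and 3, round spermatids minus testis was -0.36 for Serpine3, 0.18 for Serpinb6a, 0.61 for Cst13, 0.85 for Spink2 and 0.38 for Cst8, and averaged over genotypes it was 0.28 for Spink2. The cause was not tested. Depth limits genes under 0.143 to 0.407 RPM, and 29 of the 45 measured inhibitors had no group mean of 10 RPM.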
